A study of Mus musculus with 11 samples.

Results

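Calcium leaves the cytosol of a vessel wall cell by several routes, and the transcripts of 10 genes that serve them were followed in the aorta of old mice: the reticulum pumps Atp2a1, Atp2a2 and Atp2a3, their small inhibitors Pln and Sln, the plasma membrane pumps Atp2b1, Atp2b2, Atp2b3 and Atp2b4, and the sodium-calcium exchanger Slc8a1. Members were chosen by gene name, which gave 16 probes of 10 genes among 55681 probes on the array. RNA came from the descending aorta of male C57BL/6 mice aged 20 months. The nitrate group (old nitrate treated mice, 5 arrays) drank water with 1 g/L NaNO3 for 8 weeks, and the control group (old mice, 6 arrays) had no nitrate added. According to the study's methods the controls were given sodium chloride at an equal concentration, whereas the labels do not name it and describe the control arrays as a re-analysis of earlier samples. No altered allele is named for either group, each array held the RNA of 1 mouse, and a further nitrate array that the methods imply was not analysed here. The question was whether transcripts of calcium removal differed between old nitrate treated and old mice.

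Contraction of vascular smooth muscle follows the calcium level of the cytosol, which falls again when ATP-driven pumps return calcium to the sarcoplasmic reticulum or push it out across the plasma membrane. Phospholamban (Pln) and sarcolipin (Sln) are small membrane proteins that bind the reticulum pumps and slow them, and phosphorylation of phospholamban relieves its inhibition. The plasma membrane pumps are activated by calmodulin, while the exchanger uses the sodium gradient and can run in either direction.

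On these arrays each level is the brightness of a 60-base probe. To show what was read, 1 probe each is given for the reticulum pumps Atp2a1 and Atp2a2, the plasma membrane pump Atp2b1 and the exchanger, in lower case and with its mm9 position. They start 2385, 2567, 562 and 1936 bases into their transcripts. Over 120 pairs of member probes the longest run of bases shared by any pair was 10, and no probe was compared with the transcript of another member.
Atp2a1 (chr7:133591703-133591762, minus strand): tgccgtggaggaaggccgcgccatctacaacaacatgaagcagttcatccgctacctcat
Atp2a2 probe 2 (chr5:122910660-122910719, minus strand): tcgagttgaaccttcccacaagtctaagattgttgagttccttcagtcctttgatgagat
Atp2b1 probe 2 (chr10:98431670-98431729, plus strand): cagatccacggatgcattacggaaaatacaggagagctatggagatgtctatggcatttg
Slc8a1 probe 1 (chr17:81844837-81844896, minus strand): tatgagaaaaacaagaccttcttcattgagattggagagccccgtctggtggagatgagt

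Before normalization the arrays of slide 3, which belong to a separate scan, were brighter than the others. The 75th percentile of the background-subtracted signal lay between 216 and 289 in the nitrate group and between 213 and 282 in the control group, and it was 282 to 289 on the 4 arrays of slide 3 against 213 to 258 on slides 1 and 2. Per array 25965 to 28707 probes were found and well above background on slide 3, and 24779 to 25540 on the other slides, and slide 3 held 2 arrays of each group. Correlations between pairs of arrays ran from 0.982 to 0.995. Smooth muscle markers were bright in every mouse and the summed signal of 10 of them was 695986 to 731365 in the nitrate group and 551208 to 724151 in the control group. The difference was above 0 for 9 of these 10, with a median of 0.15, and 1 was called, Lmod1, which was higher by 0.31 (unadjusted P = 0.0210 in limma's test). Of 10 fat cell markers 4 were called lower in the nitrate group (Adipoq, Retn, Lipe and Cfd), beside 4.62% of all names, and 6 were not called. None of the 10 had a difference above 0, and their median difference was -0.29. Their summed signal was 271859 to 360189 against 357355 to 481446. The part of either list in the differences below was not tested. The control arrays all occupied column 3 of a slide, where no nitrate array lay, and this position cannot be told apart from treatment. As the tissue was measured whole, fewer cells of a type and less RNA per cell cannot be told apart either.

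Of the 16 probes, 11 probes of 9 genes met the detection rule, which asks for a found spot that is well above background in 5 or more arrays of 1 group, and entered the test. Atp2b2 and Atp2a1 were higher in the nitrate group, and the remaining genes did not pass. A probe was called at an unadjusted P value under 0.05 with a fold change above 1.2, the thresholds of the study's methods, and 3 of 11 member probes were called, all higher (Atp2a1 and both probes of Atp2b2). Over all 23648 probes tested by limma, 9.00% were called, 4.15% as higher and 4.85% as lower. Counted with 1 probe per gene, 2 of 9 member genes were called, beside 8.89% of all names, 4.27% as higher and 4.62% as lower. No member probe passed Benjamini-Hochberg adjustment over all probes tested, the lowest adjusted P value in limma's fit being 0.232, and 3 of all 23648 probes did, which is 0.0127%. Atp2a1 and Atp2b2 are on the list of calcium genes that the study drew from these same mice, so their call is not independent of that choice. The difference was above 0 for 11 of 11 tested member probes, beside 53.8% of all probes tested (54.6% of names), and the median over the 9 member genes was 0.14 (range 0.02 to 0.93) on the log2 scale beside 0.01 over all probes. Without nitrate 4 that median was 0.024, and without nitrate 4 and control 1 it was 0.079. Within slides 1, 2 and 3 the difference was above 0 for 8, 6 and 8 of the 11. These probes were read on the same arrays and several share a gene, so that they are not independent observations. No member's groups were fully apart, which held for 2.75% of all probes tested.

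**Figure D1:**
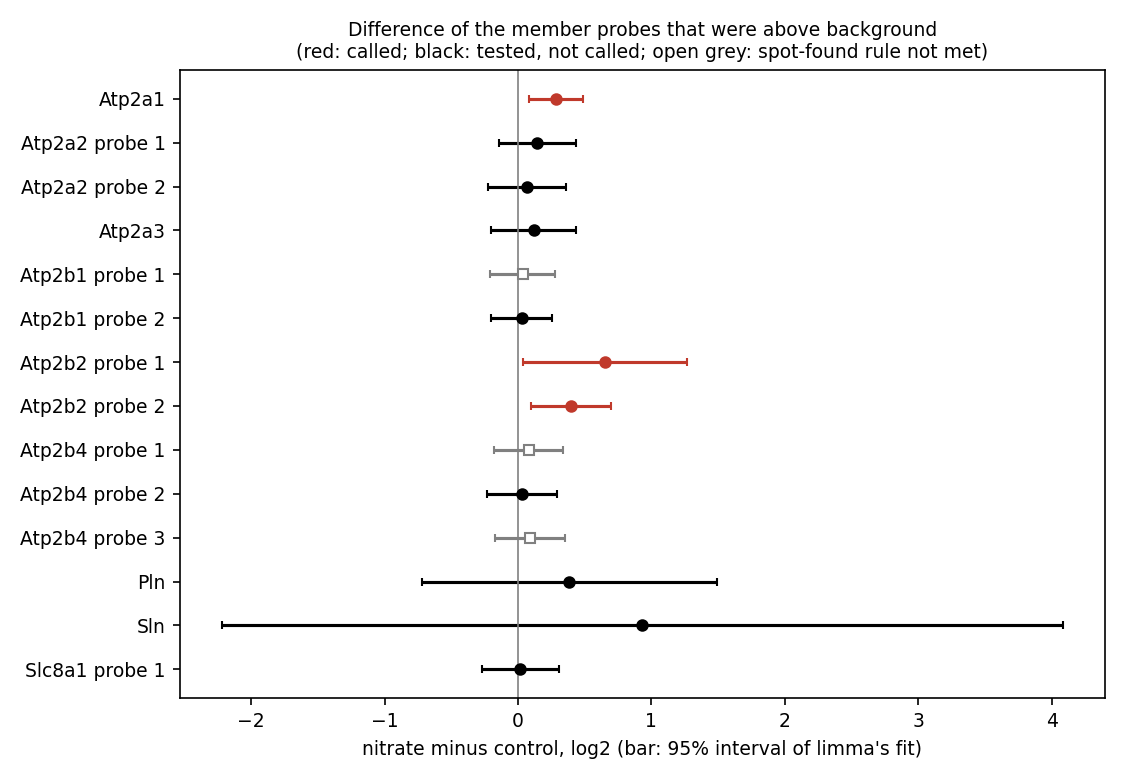
Nitrate minus control difference in log2 signal for the member probes that were above background, with the 95% interval of limma's fit (5 nitrate and 6 control mice). The intervals of Atp2a1 and both Atp2b2 probes, in red, lie above 0, those of the other pumps and of the exchanger span 0, and that of Sln runs from -2.22 to 4.08.

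Atp2a1 encodes the reticulum pump of fast skeletal muscle. Its log2 signal was 7.70, 7.54, 7.72, 7.65 and 7.45 in the 5 nitrate treated mice. In the 6 controls it ran from 7.11 through a median of 7.29 to 7.62. The highest control, control 1, lay within the nitrate range, while the other 5 controls reached 7.37 and stayed below every nitrate treated mouse. The group means were 7.61 ± 0.11 (SD, n = 5) and 7.33 ± 0.17 (SD, n = 6). The difference was 0.29 ± 0.09 (SE, 95% interval 0.09 to 0.48), or 1.22-fold, with P = 0.00892 unadjusted and 0.232 adjusted in limma's moderated test, and the exact two-sided permutation P value was 0.0173. The fold lay just above the threshold of 1.2, and it fell to 0.20 on the log2 scale, under that threshold, with normexp background correction (unadjusted P = 0.0140). The call was also lost, by fold, with an offset of 16 (0.26) and without nitrate 1 (0.26), nitrate 3 (0.26) or control 3 (0.24). It was called without any 1 of the other 8 mice. Of 12 skeletal muscle markers 7 were tested and none was called, although the difference was above 0 for 6 of the 7 and was 0.35 for Myoz1, 0.33 for Acta1 and 0.30 for Mylk2. The myosin heavy chains Myh1, Myh2 and Myh4 and the light chain Mylpf were not well above background on any array. The mean of the tested skeletal muscle markers was 7.42 to 7.86 in the nitrate group and 7.28 to 7.69 in the control group, and their summed signal was 9699 to 14141 against 7423 to 12368. Their part in the Atp2a1 difference was not tested.

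Atp2a2 encodes the reticulum pump of heart and smooth muscle. Probe 1 read 11.05, 11.03, 11.03, 11.68 and 10.87 in the nitrate treated mice and from 10.72 through a median of 11.02 to 11.10 in the controls. Only nitrate 4 lay above all controls. The difference of 0.14 (95% interval -0.14 to 0.43, unadjusted P = 0.298 in limma's test) was smaller than the spread between mice, and without nitrate 4 it was 0.0076. Probe 2, whose sequence is given above, differed by 0.07 (95% interval -0.22 to 0.36, unadjusted P = 0.626 in limma's test). With probe 2, nitrate 1 and nitrate 4 lay above all controls, and the other 3 nitrate treated mice lay at or below the control median.

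Atp2a3 encodes the reticulum pump found in endothelium, platelets and other blood cells. Its signal was 10.02, 9.85, 9.71, 9.48 and 9.25 in the nitrate treated mice and 9.12 to 9.75 in the controls, with a control median of 9.62. The nitrate group spread to both sides of the control median, 3 of 5 mice lying above it. The difference was 0.12 (95% interval -0.20 to 0.44, unadjusted P = 0.434 in limma's test).

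**Figure D2:**
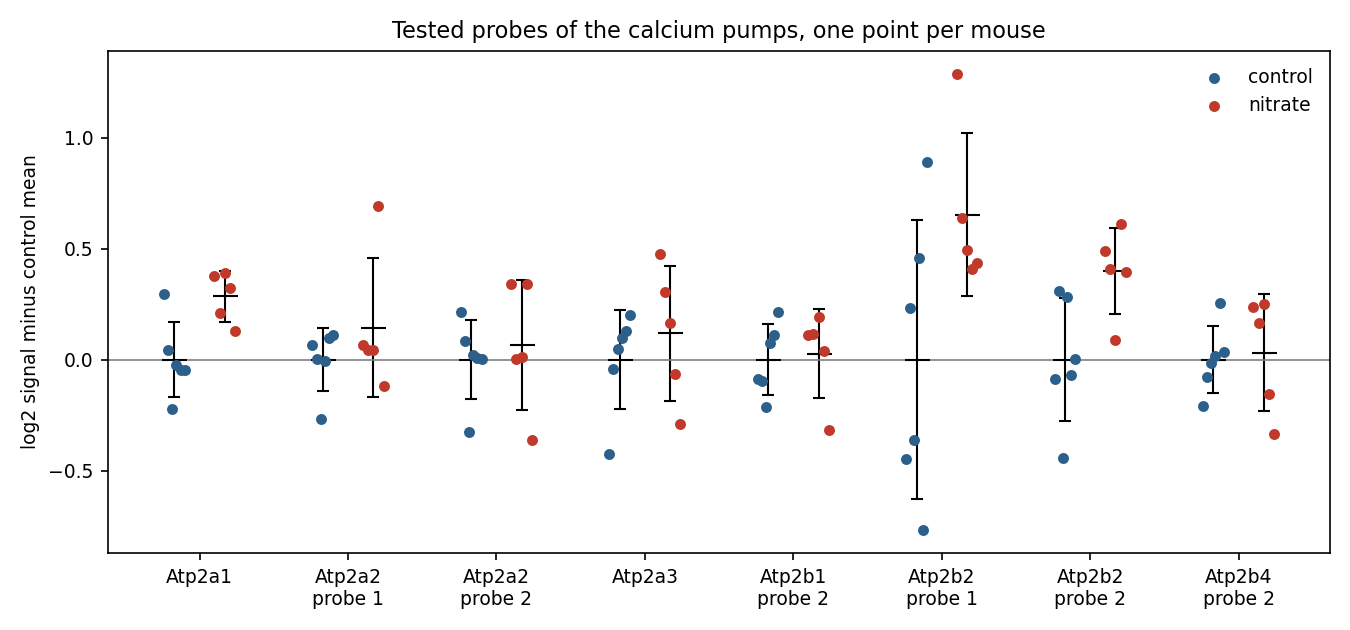
Log2 signal of the tested pump probes in each mouse, minus the mean of the control group for that probe. Points are mice (6 control, 5 nitrate), and bars give the group mean and SD. For Atp2b2 probe 2, 4 of 5 nitrate treated mice lie above all controls, whereas the groups overlap widely for Atp2a2, Atp2a3, Atp2b1 and Atp2b4.

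The inhibitors of the reticulum pumps were the members that varied most between mice, in both groups. Sarcolipin, found chiefly in atrial and skeletal muscle, read 6.92, 6.82, 4.99, 12.27 and 7.99 in the nitrate treated mice. In the controls it ran from 4.16 through a median of 6.16 to 11.90. One mouse of each group stood far above the rest: the background-subtracted intensity of Sln was 5451 in nitrate 4 and 3392 in control 1, and 16.9 to 295 in the other 9 mice. The groups overlapped over nearly their whole range, and the difference was 0.93 (95% interval -2.22 to 4.08, unadjusted P = 0.531 in limma's test). Phospholamban, which is found in heart, slow skeletal and smooth muscle, read 5.60, 5.47, 5.40, 7.94 and 6.65 in the nitrate treated mice and 5.11 to 7.36 in the controls, with a control median of 5.65. The same 2 mice were highest, nitrate 4 and control 1. Its difference was 0.39 (95% interval -0.72 to 1.49, unadjusted P = 0.460 in limma's test). The differences of Sln and Pln were -0.18 and -0.045 without nitrate 4, 1.94 and 0.69 without control 1, and 0.82 and 0.26 without both, and neither was called in any of these.

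The same 2 mice were also highest for heart muscle markers. The mean log2 signal of the 8 heart muscle markers tested, of 10 listed, was 12.29 in nitrate 4 and 11.75 in control 1, against 7.36 to 9.57 in the other nitrate treated mice and 6.95 to 8.36 in the other controls. The summed signal of these 8 was 3905 to 73905 in the nitrate group and 2924 to 47044 in the control group. Each of the 10 listed was well above background on at least 1 array. None of the 8 was called between the groups. Among tested transcripts of 12223 gene names, those whose pattern over the 11 arrays was most like that of Sln were Myl7 (Pearson's r = 0.98), Cox6a2 (0.98) and Myh8 (0.98), and for Pln they were Fndc5 (0.95), Mb (0.94) and Ckm (0.94). Without nitrate 4 and control 1 these values were 0.92, 0.92 and 0.92 for Sln and 0.81, 0.77 and 0.76 for Pln over 9 arrays. All points of such a correlation share the arrays and their scaling, and the values are a description. The part of heart muscle RNA in the levels of Sln and Pln was not tested.

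**Figure D3:**
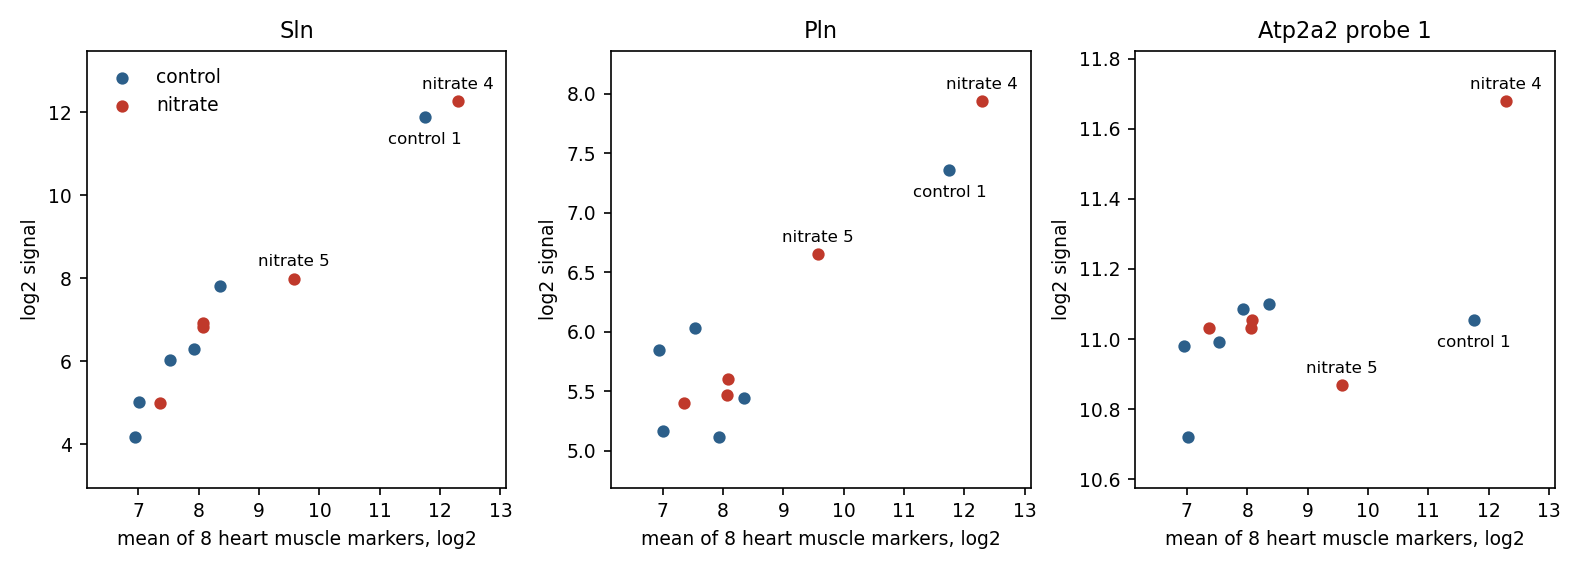
Log2 signal of Sln, Pln and Atp2a2 probe 1 in each of 11 mice against the mean log2 signal of 8 heart muscle markers in the same mouse. Nitrate 4 and control 1 lie far to the right in every panel, at marker means of 12.29 and 11.75, and carry the highest Sln and Pln signals, while Atp2a2 probe 1 is high in nitrate 4 but not in control 1.

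Among the plasma membrane pumps, Atp2b2 was higher in the nitrate group with both of its probes. Atp2b2 encodes a fast-acting isoform best known from neurons, hair cells and the mammary gland. Probe 2 read 7.85, 7.76, 7.45, 7.97 and 7.75 in the nitrate treated mice, and from 6.91 through a median of 7.32 to 7.67 in the controls. All nitrate treated mice but nitrate 3 lay above every control. The group means were 7.75 ± 0.19 (SD, n = 5) and 7.36 ± 0.28 (SD, n = 6), and the difference was 0.40 ± 0.14 (SE, 95% interval 0.10 to 0.70), or 1.32-fold. Its unadjusted P value was 0.0133 and its adjusted P value 0.258 in limma's test, and the exact permutation P value was 0.0281. Probe 1 read 7.40, 6.75, 6.61, 6.52 and 6.55 in the nitrate treated mice and from 5.34 through a median of 6.04 to 7.0 in the controls. Here 1 of 5 nitrate treated mice lay above all controls, although all 5 lay above the control median. The difference was 0.65 ± 0.28 (SE, 95% interval 0.04 to 1.27), or 1.57-fold, with P = 0.0397 unadjusted and 0.329 adjusted in limma's test and an exact permutation P value of 0.0823. The call of probe 1 was lost without nitrate 1 (0.49, unadjusted P = 0.108 in limma's test), nitrate 2 (0.66, unadjusted P = 0.0609), control 1 (0.56, unadjusted P = 0.0846), control 3 (0.58, unadjusted P = 0.0787) or control 5 (0.50, unadjusted P = 0.0834). With both nitrate 4 and control 1 left out, neither probe was called (0.62 with unadjusted P = 0.0846 and 0.33 with unadjusted P = 0.0634 in limma's test). Of 10 neuron and Schwann cell markers 5 were tested and none was called. Their mean was 8.61 to 8.87 in the nitrate group and 8.45 to 8.74 in the control group, their summed signal was 19190 to 28608 against 18472 to 26806, and Syt1, Dbh and Nefl were not well above background on any array. Their part in the Atp2b2 difference was not tested.

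Atp2b1 and Atp2b4 encode the plasma membrane pumps of most tissues, vascular smooth muscle included. Atp2b1 probe 2, shown above, read 8.91, 8.91, 8.99, 8.84 and 8.48 in the nitrate treated mice and 8.58 to 9.01 in the controls, a difference of 0.03 (95% interval -0.20 to 0.26, unadjusted P = 0.805 in limma's test). The tested probe of Atp2b4, probe 2, read 7.33, 7.26, 7.34, 6.93 and 6.75 in the nitrate treated mice and 6.88 to 7.34 in the controls, a difference of 0.03 (95% interval -0.23 to 0.29, unadjusted P = 0.800 in limma's test). For neither gene did any nitrate treated mouse exceed the highest control with these probes. The other probe of Atp2b1 and the 2 other probes of Atp2b4 were well above background on all 11 arrays but were flagged as not found on too many of them, and they differed by 0.04, 0.08 and 0.09. Atp2b3, a pump of the nervous system, was not well above background on any of the 11 arrays, and no fold is given for it.

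The sodium-calcium exchanger Slc8a1 did not differ detectably. Probe 1 read 4.97, 4.91, 5.66, 5.21 and 4.97 in the nitrate treated mice and 4.94 to 5.30 in the controls, with a control median of 5.16. Apart from nitrate 3, every nitrate treated mouse lay within or just below the control range. The difference was 0.02 (95% interval -0.27 to 0.31, unadjusted P = 0.892 in limma's test). Probe 2 was well above background on 1 of 5 nitrate arrays and on no control array, and no fold is given for it. The related exchangers Slc8a2 and Slc8a3 were not called either, with differences of 0.18 and -0.19 (unadjusted P = 0.200 and 0.201 in limma's test).

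The slides on which the arrays were printed were compared for the called probes. Atp2a1 was higher in the nitrate group on each slide, by 0.12, 0.43 and 0.36 on slides 1, 2 and 3. Atp2b2 probe 1 differed by 1.07, -0.18 and 0.99 and probe 2 by 0.34, -0.05 and 0.76. The higher Atp2b2 signal was thus seen on slides 1 and 3, each with 2 arrays per group, and not on slide 2, which held 1 nitrate and 2 control arrays. With the slide as a block in limma's fit, Atp2a1, Atp2b2 probe 1 and Atp2b2 probe 2 differed by 0.29, 0.73 and 0.40 (unadjusted P = 0.00660, 0.0111 and 0.0208). Sln and Pln changed sign between slides, Sln from -2.09 on slide 1, which held control 1, to 4.48 on slide 3, which held nitrate 4.

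**Figure D4:**
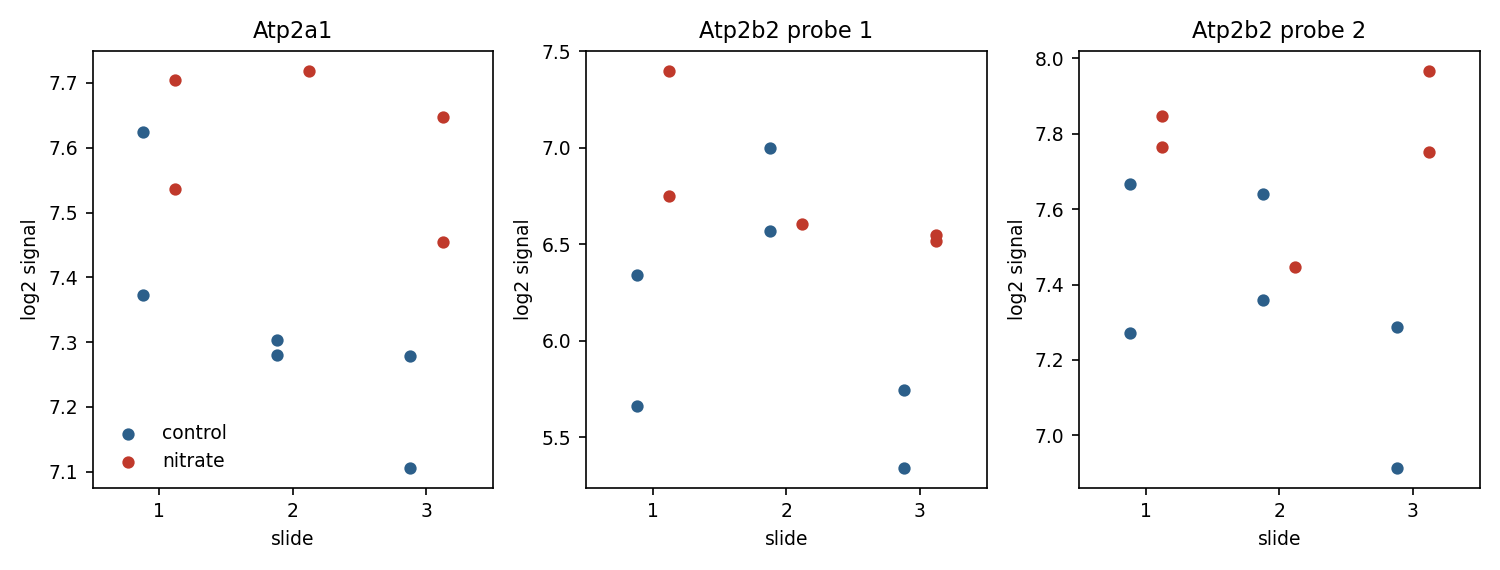
Log2 signal of Atp2a1 and of both Atp2b2 probes in each mouse, by slide, with control and nitrate mice side by side. On slide 2 the nitrate treated mouse exceeds both controls for Atp2a1 (difference 0.43) but lies between them for Atp2b2 (differences -0.18 and -0.05).

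The genes that release calcium, hold it in the store or serve the pumps were counted in 4 lists. Of 71 genes listed 54 were tested, and 4 were called higher and 2 lower, beside 4.27% and 4.62% of all names. Among 15 tested genes of calcium release and entry, Ryr2, a release channel of the reticulum, was higher by 0.48 ± 0.14 (SE, unadjusted P = 0.00436, adjusted P = 0.194 in limma's test). Cacna2d1, an accessory subunit of voltage-gated calcium channels, was higher by 0.27 ± 0.09 (unadjusted P = 0.0130), or 1.21-fold. Its call was lost with normexp background correction and without nitrate 1, control 1, control 3, or both control 1 and nitrate 4. Itpr2, a release channel opened by inositol trisphosphate, was lower by 0.40 (difference -0.40 ± 0.08, unadjusted P = 0.000406, adjusted P = 0.108 in limma's test). The groups' exact permutation P value for Itpr2 was 0.00216, the smallest that 462 divisions of the mice can give. The other inositol trisphosphate receptors, Itpr1 and Itpr3, were not called and differed by 0.15 and 0.21.

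Among 17 tested genes of the store lumen, the junction and pump partners, Jph4, a junction protein best known from neurons, was higher by 0.42 ± 0.15 (unadjusted P = 0.0177 in limma's test), a call lost with normexp and without nitrate 1. S100a1, a calcium-binding protein that associates with the reticulum pump and release channels, was lower (difference -0.37 ± 0.11, unadjusted P = 0.00695). Of 14 tested genes for calmodulin, the kinases and phosphatases that act on phospholamban or the pumps, Camk2g, a calmodulin-dependent kinase chain, was higher by 0.35 ± 0.11 (unadjusted P = 0.00803 in limma's test). Among 8 tested genes of the other calcium exchangers and pumps none was called, and none had an unadjusted P value under 0.05, beside 14.4% of all probes tested. Of the genes tested here, Ryr2, Itpr2, Itpr3, Cacna1d, Camk2g and Calm2 are also on the study's own list from these mice, so that their values are not independent of that choice. Itpr3 and Calm2 (differences 0.21 and 0.21, unadjusted P = 0.0253 and 0.0224 in limma's test) stayed under 1.2-fold, and Cacna1d, a pore subunit of voltage-gated calcium channels, was not called (difference -0.21, unadjusted P = 0.627). The study lists Cacna1d as higher. It was called higher, with another probe representing it, without a detection filter and under the detection rule without the spot-found flag. No gene of the 4 lists passed adjustment.

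For the remaining members, the transcripts with the most similar pattern over the 11 arrays are given as a description. They were Tmsb15b1 (r = 0.91), Apoa2 (0.88) and 2310043M15Rik (0.87) for Atp2a1, and Gm9022 (0.89), Ass1 (0.88) and Zfp287 (0.87) for Atp2b2. For Atp2a2 they were Tmem38a (0.90), Gpc1 (0.89) and Tmub2 (0.86), which were 0.76, 0.68 and 0.63 without nitrate 4 and control 1. Hspa2 was among the 3 most similar to both Atp2a3 (0.96) and Atp2b4 (0.91), beside Gm4750 (0.97) and Mapre1 (0.96) for Atp2a3 and Synm (0.93) and Gm5864 (0.90) for Atp2b4. Atp2b1 was closest to Lgals1 (0.95), Cyth3 (0.93) and Crim1 (0.92), and Slc8a1 to Usf1 (0.85), Gucy1b2 (0.84) and Dok3 (0.84).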

How the data were processed

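RNA of the aorta was measured on one-color Agilent SurePrint G3 mouse arrays. The authors deposited, for each array, background-subtracted spot intensities and quality flags from Feature Extraction 10.7.1.1, not normalized between arrays. They also deposited a table of log2 values, quantile normalized and centred on the median of all arrays, which followed the values computed here (r of 0.9999 or above in each array) and served as an alternative. No sample column was left unmatched.

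Control spots and spots marked as outliers were dropped. Intensities under 1 were set to 1, taken to log2, averaged per probe and quantile normalized across 11 arrays. Calculations used R 4.3.3 and limma 3.58.1 (lmFit, eBayes, Benjamini-Hochberg over all tested probes). Probes outside the detection rule were fitted with all probes. Single values also had two-sided exact permutation tests over 462 divisions of the mice. A gene was represented by its tested probe with the highest mean signal. The precision is limited by the number of arrays, and nothing in the labels beyond separate samples describes the replicates. The P values set the group difference against the spread between these samples. Probe names, sequences and mm9 positions are those of the files, and exon annotation of mm9 was not used here. The test was tried on simulated data.

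All 10 members, the genes called in the lists and the 3 most similar transcripts per member were named. A further gene list is not reported here. Members, gene lists and marker lists were chosen with earlier results of these data known. Alternatives were percentile scaling, normexp background correction, an added offset of 16, the deposited table, other detection rules, flagged spots kept, a trended robust prior, blocks for slide or replicate number, and leaving out arrays. The detection rule without the spot-found flag was chosen after seeing the data.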

Additional observations from a re-analysis of the deposited data

Results flagged for a closer look

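Of 58 groups of values examined for a mouse set apart from its group, 6 had one, where chance alone gives about 2.9. In the nitrate group nitrate 4 was high for Atp2a2 probe 1, its gap to the next mouse taking 0.772 of the range, and nitrate 1 was high for Atp2b2 probe 1 (0.739 of the range). In the control group control 3 was low for Atp2a2 probe 1 (0.686 of the range). Control 1 was high for the mean of the heart muscle markers (0.707 of the range) and for that of the brown fat markers (0.738), and low for that of the smooth muscle markers (0.725).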

How the results depend on the processing

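With 5 and 6 arrays and differences near the 1.2-fold threshold, calls of single probes changed with the setting. The count of 3 called member probes was 1 with normexp background correction (Atp2b2 probe 2). The count of 2 called genes was 1 with normexp and 1 with an offset of 16, Atp2a1 falling under 1.2-fold in both. Without control 1 and nitrate 4, 1 probe of 1 gene was called (Atp2a1). Leaving out each mouse gave 1 to 3 probes, 1 to 2 genes and a median difference of 0.024 (without nitrate 4) to 0.22. Atp2a1 was called in 8 of 11 (0.24 to 0.34). Atp2b2 probe 2 was called in 11 of 11 (0.31 to 0.48) and probe 1 in 6 of 11 (0.49 to 0.83). Probe 1 was not called with normexp (unadjusted P = 0.0540 in limma's test) or without a detection filter (unadjusted P = 0.0541). The calls among all probes numbered 1217 with normexp, 436 of them higher, and 3224 without a detection filter, 1715 of them higher, against 2129 with 982 higher.

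Signs turned only for member probes that were not called. Leaving out each mouse gave -0.18 to 1.94 for Sln, -0.045 to 0.69 for Pln, -0.11 to 0.077 for Slc8a1 probe 1, -0.024 to 0.12 for Atp2b4 probe 2, -0.0051 to 0.14 for Atp2b4 probe 1, -0.016 to 0.11 for Atp2b1 probe 2, -0.020 to 0.090 for Atp2b1 probe 1 and -0.0021 to 0.17 for Atp2a2 probe 2. Atp2b1 probe 1 was -0.0018 without control 1 and nitrate 4. The cause of these changes was not tested. Over all settings and the member probes above background 287 differences kept direction and call, 14 lost the call and 17 turned sign.

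The labels number the mice of both groups, but the numbers did not pair them. The correlation of same-numbered deviations was 0.01, 0.12, -0.14, -0.13 and 0.18, and 1 of 5 mice was closest to its own number. With the replicate block, fitted over 10 arrays, 3 probes of 2 member genes were called.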
